A study of Mus musculus with 8 samples.

Results

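The DNA base 5-hydroxymethylcytosine (5hmC) was examined at 8 genes of myelin and of oligodendrocytes, the cells that wrap axons in the central nervous system: Mbp, Mog, Mag, Mobp, Cnp, Sox10, Myrf and Ugt8a. They form a group by their known function, listed when earlier results of these data were known, and were found by symbol among 22367 protein-coding genes of the mouse mm9 annotation (GENCODE M1), where Myrf is listed as Gm98. 5hmC arises when TET enzymes oxidise 5-methylcytosine, and it is abundant in brain DNA. Myelin is made late in development by mature oligodendrocytes: the factors Sox10 and Myrf switch on the genes of the myelin proteins, while enzymes such as Ugt8a make the lipids that fill the membrane. Embryonic stem cells (ESCs), fibroblasts and hepatocytes make no myelin.

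5hmC was mapped by GLIB-Seq, in which the base is glucosylated, oxidised and tagged with biotin so that DNA fragments carrying it can be captured and sequenced. The data are 6 libraries, 1 for each condition: the ESC line E14 (ESC), C57BL/6 embryonic fibroblasts (MEF), of embryonic day 11 by the labels and of a later day by the study's methods, brain and liver of C57BL/6 mice aged 8 weeks, and E14 cells transfected with a short hairpin against GFP (shGFP) or against Suz12 (shSuz12), a subunit of the Polycomb complex PRC2. The last pair shares the parent line of ESC, and shGFP is the control for shSuz12. With 1 library for each condition there is no spread between replicates, so no difference below was tested. The RNA-Seq libraries of the hairpin cells were not analysed here, and the lists of peaks hold no expression by which the labelled tissues could be checked. Whole brain is a mixture of cells, so that fewer oligodendrocytes and less 5hmC in each of them cannot be told apart.

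Each library is a list of 5hmC peaks with a score, taken as 10 times the negative log10 of the p-value from MACS. The lists hold between 130408 (liver) and 217025 peaks (MEF) and cover between 3.15% (shSuz12) and 7.83% (MEF) of the genome. They do not end at the same score. The lowest is 80 in ESC and liver, 50.02 in shGFP, 30.34 in shSuz12 and 30 in MEF and brain, so a score was read only within its own list, where its rank is the percent of that library's peaks that score no higher. For each gene a window was taken of the gene and 10 kb on each side, and the percent of its bp under peaks was divided by the percent of the genome under peaks in the same library. This relative coverage is 1 where a window holds as much as the genome at large. A gene was called higher in 1 library than in another where its relative coverage was at least 2 times as high and at least 500 bp were covered. Positions are in bp from the annotated transcription start site (TSS) along the gene, negative upstream, with the score of a peak in brackets.

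The windows differ in the CpG sites that can carry 5hmC, and the starts of 2 genes show how far they differ. The 200 bases before the TSS are given for Mog, where ESC and shGFP alone had a peak, and for Ugt8a, where no library had one. Both are from the mm9 (NCBIM37) reference, at chr17:37160344-37160543 and chr3:125641469-125641668, written on the minus strand, which is the strand of these genes. Each CG is in capitals.
Mog: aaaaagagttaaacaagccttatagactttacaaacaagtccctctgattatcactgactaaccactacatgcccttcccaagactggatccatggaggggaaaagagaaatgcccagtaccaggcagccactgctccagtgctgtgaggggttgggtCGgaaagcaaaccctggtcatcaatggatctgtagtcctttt
Ugt8a: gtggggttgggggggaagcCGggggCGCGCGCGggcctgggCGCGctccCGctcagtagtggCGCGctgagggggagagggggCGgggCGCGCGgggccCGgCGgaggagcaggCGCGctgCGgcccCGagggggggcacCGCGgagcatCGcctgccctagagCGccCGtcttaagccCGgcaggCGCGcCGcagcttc
The Mog stretch holds 1 CG and the Ugt8a stretch 29. Of all protein-coding genes, 90.4% have at least 1 CG in the same 200 bases (CG reads the same on both strands) and 3.83% have at least 29, with a median of 7. ESC peaks covered all 200 bases at Mog, as did shGFP peaks, those of the other 4 libraries covered none, and no peak of any library touched the stretch at Ugt8a.

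A further pair of stretches marks where brain had its peaks. The first is the central 200 bases of the highest-scoring brain peak at Cnp (chr11:100440925-100441124). The other is that of the Mobp peak with the highest score among those seen in brain alone in the 8 windows (chr9:120080661-120080860). Both stretches lie in introns, while the wider peaks around them also touch coding exons. Both are on the plus strand of mm9, the strand of their genes, with each CG in capitals.
Cnp: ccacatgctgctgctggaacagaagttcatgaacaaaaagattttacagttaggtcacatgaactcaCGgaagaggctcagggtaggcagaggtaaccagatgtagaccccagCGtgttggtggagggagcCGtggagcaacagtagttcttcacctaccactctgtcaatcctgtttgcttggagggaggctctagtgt
Mobp: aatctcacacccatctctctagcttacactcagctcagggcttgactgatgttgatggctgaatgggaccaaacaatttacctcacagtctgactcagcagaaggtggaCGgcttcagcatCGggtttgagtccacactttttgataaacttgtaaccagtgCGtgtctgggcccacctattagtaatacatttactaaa
Each holds 3 CG. The Cnp stretch was wholly under peaks in ESC, brain, liver and shGFP, and free of them in MEF and shSuz12. The Mobp stretch was under a peak in brain and in no other library.

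Taken over the 8 windows, 5hmC peaks were most numerous in ESC, which also had the largest share of the windows under peaks. That share, not divided by the genome, was 26.9% in ESC, 18.9% in brain, 17.6% in shGFP, 16.5% in MEF, 12.4% in liver and 11.2% in shSuz12. The windows held 101 peaks in ESC, 68 in MEF, 67 in brain, 42 in liver, 84 in shGFP and 77 in shSuz12. Mbp, much the longest of the genes with peaks, held many of these, and without it the counts were 68, 29, 33, 38, 57 and 53 in the same order. A peak was present in the window of 7 of the 8 genes in every library but liver, where it was 6. Among all protein-coding genes a peak was present in 77.6% in ESC, 75.8% in MEF, 72.2% in brain, 68.0% in liver, 75.8% in shGFP and 76.2% in shSuz12. The median relative coverage of the 8 genes was 4.52 in ESC, against 1.47 over all genes, 4.23 against 1.31 in shGFP and 4.10 against 1.38 in shSuz12. In brain it was 1.88 against 1.12, in liver 1.31 against 1.20 and in MEF 1.02 against 0.82. The median of the 8 genes was thus above that of all genes in each library at these settings. It moved with the settings, in brain to 3.48 and in MEF to 0.518 with peaks that scored 80 or more, and in liver to 0.783 without flanks.

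**Figure D1:**
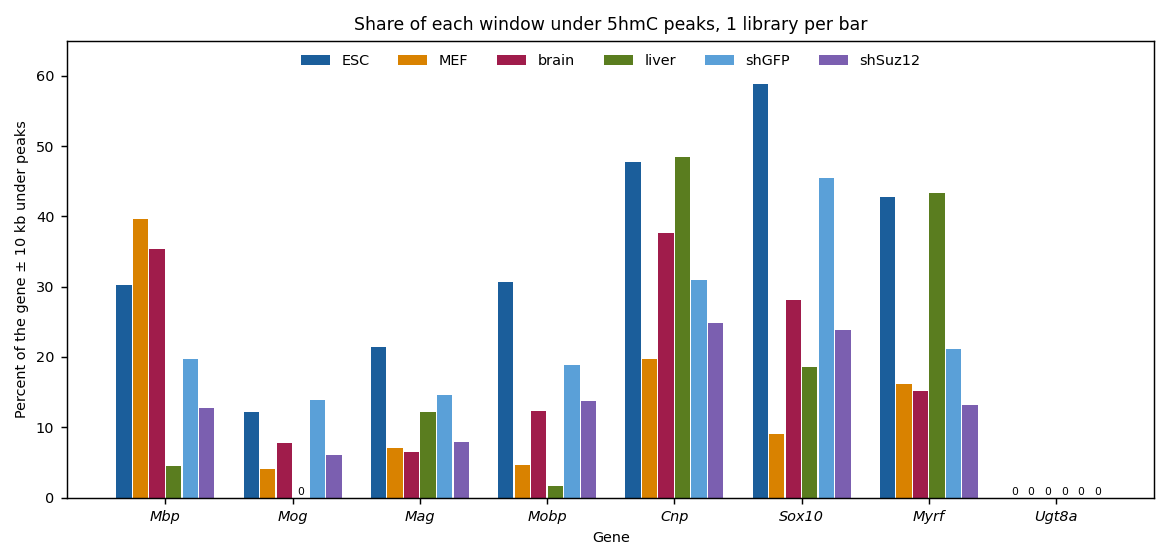
Percent of each gene and its 10 kb flanks under 5hmC peaks (vertical axis) for the 8 genes (horizontal axis), with 1 bar for each of the 6 libraries and no error bars, since each condition has 1 library. Sox10 in ESC is the tallest bar at 58.8%, brain ranges from 0 at Ugt8a to 37.7% at Cnp, and Ugt8a is at 0 in all 6 libraries.

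**Figure D2:**
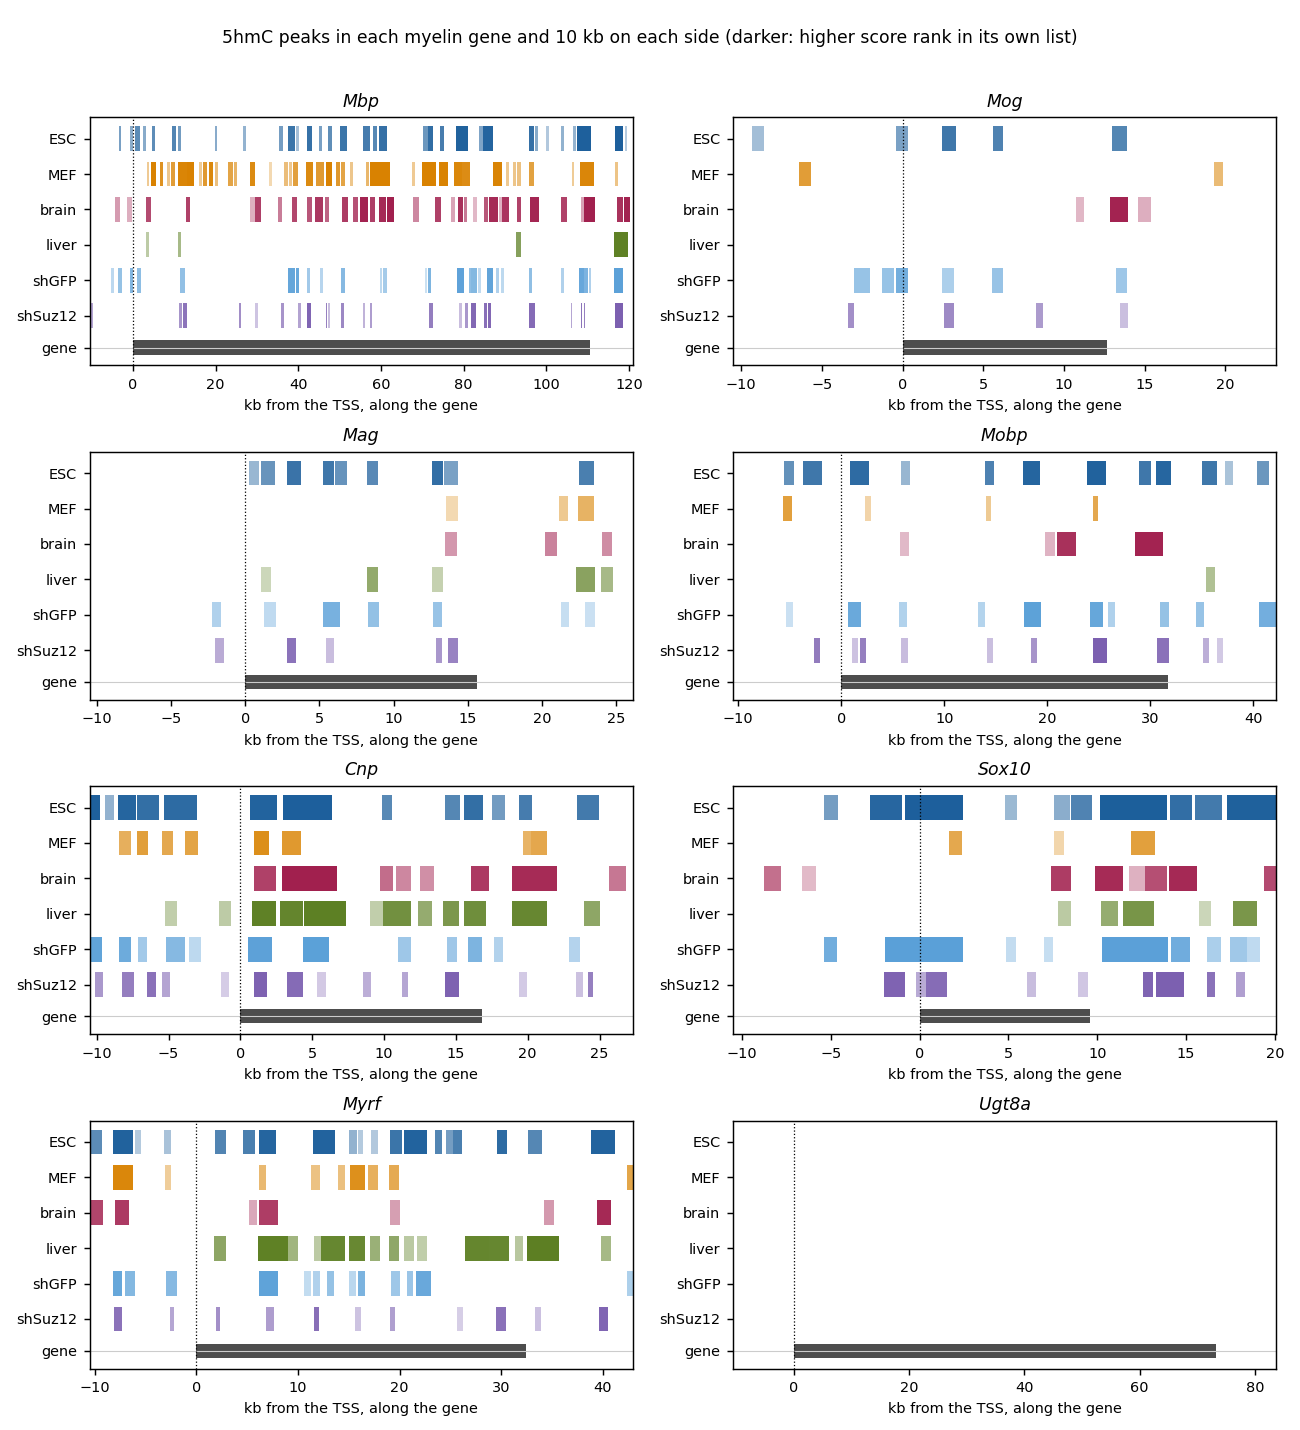
Position of every peak (blocks) along each gene window in kb from the TSS (horizontal axis), with 1 row for each library, the gene below as a grey bar and the TSS as a dotted line. Darker blocks rank higher by score in their own list. Mbp carries 24 to 39 peaks in all libraries but liver, which has 4, most Mag and Mobp blocks are in the rows of E14 cells, and Ugt8a is empty.

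Myelin basic protein, encoded by Mbp, is the protein that compacts the inner faces of the myelin membrane. Mbp (ENSMUSG00000041607.10, chr18:82644538-82755029, plus strand) is 110492 bp long and has 2 groups of annotated starts, since 11 of its 16 transcripts start between 79317 and 79437 bp. Peaks covered 30.3% of the window in ESC, 39.7% in MEF, 35.4% in brain, 4.55% in liver, 19.7% in shGFP and 12.7% in shSuz12. The relative coverage was 4.49, 5.06, 4.82, 0.711, 4.32 and 4.05. Liver stood apart with 4 peaks, against 24 to 39 in the other libraries. MEF, where Mbp ranked above 97.8% of all genes in relative coverage, was level with brain, where it ranked above 93.4%.

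At the first Mbp start, a peak crossed the TSS in ESC and shGFP only. Around this start and in the first introns after it, ESC had peaks at -3459 to -2829 (150.1), -717 to 40 (123), 459 to 1656 (216), 2460 to 3093 (127), 4529 to 5362 (210.4), 9503 to 10419 (249) and 10871 to 11725 (161). MEF had them at 3389 to 3971 (36.2), 4236 to 5589 (491), 6532 to 7285 (124), 8155 to 8851 (38.3), 9182 to 10244 (84.8), 10877 to 13124 (295) and 13150 to 14771 (537). This stretch, where MEF had 7 peaks and none upstream of the TSS, was sparse in the tissues. Brain had peaks at -4353 to -3149 (36.1), -1358 to -256 (32.1), 3018 to 4444 (67.2) and 12757 to 13835 (77.0), and liver at 3063 to 3934 (94.6) and 10890 to 11561 (123). In the hairpin cells, shGFP had them at -5304 to -4686 (57.9), -3533 to -2601 (85.9), -788 to 56 (109), 1034 to 1822 (93.8) and 11334 to 12581 (89.1), and shSuz12 at -10359 to -9814 (46.1), 11123 to 11839 (54.2) and 12199 to 12977 (77.4). The shGFP peak over the TSS had no counterpart in shSuz12, whose nearest peak to the TSS lay 9814 bp away.

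Further along the introns, up to about 50 kb, MEF peaks were the most numerous. MEF had peaks at 15968 to 16598 (36.0), 16911 to 18007 (95.2), 18304 to 19426 (217), 19803 to 20460 (41.9), 22971 to 24155 (72.0), 24423 to 25252 (50.9) and 28373 to 29559 (174) and, further on, at 32980 to 33635 (30.0), 36588 to 37403 (43.9), 37850 to 38506 (37.8), 38783 to 39980 (79.3), 41864 to 43469 (182), 44344 to 46105 (92.8), 46646 to 48090 (641) and 49144 to 50019 (98.5). Of the 39 MEF peaks at Mbp, 12 overlapped no peak of any other library, and all 12 lay in introns. The share of such peaks over the whole MEF list was not computed, so 12 cannot be called many or few. ESC had peaks at 19841 to 20316 (127), 26609 to 27276 (114), 35334 to 36247 (157), 37607 to 39110 (379), 39433 to 40118 (95.5), 42016 to 43429 (425), 45102 to 45831 (150.4) and 47111 to 48155 (207), and brain at 28386 to 29492 (31.8), 29617 to 31002 (78.2), 35168 to 36172 (43.7), 38533 to 39789 (71.0), 42070 to 43258 (59.9), 44123 to 46055 (87.5) and 46546 to 47308 (52.8). No liver peak lay here. The hairpin cells had fewer than MEF, with shGFP peaks at 37455 to 39144 (222), 39330 to 40082 (203), 42216 to 42876 (73.4) and 45184 to 45915 (60.3) and shSuz12 peaks at 25627 to 26170 (55.3), 29619 to 30180 (36.8), 35891 to 36444 (54.6), 39929 to 40632 (46.5), 41997 to 43019 (118), 46600 to 46997 (65.4) and 47193 to 47705 (39.2).

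From 50 kb towards the second group of starts, MEF had its Mbp peak of highest score, and brain had a close run of peaks between 50535 and 63113 bp. Brain peaks were at 50535 to 52130 (82.1), 53345 to 54507 (62.9), 54821 to 56977 (152), 57448 to 58464 (78.5), 59523 to 61189 (120.5), 61510 to 63113 (187), 67689 to 69135 (40.8) and 73130 to 74522 (77.3). The peak from 53345 to 54507 is the only Mbp peak seen in brain alone. MEF peaks were at 50324 to 51331 (72.4), 52507 to 53158 (38.2), 56484 to 57200 (49.1), 57416 to 62272 (658), 67528 to 68202 (36.2), 69897 to 73309 (545) and 73957 to 76290 (381), of which the block of 4857 bp from 57416 to 62272 ranked at 99.7% of the MEF list. ESC peaks were at 50174 to 51740 (377), 55674 to 57275 (307), 57981 to 59123 (235), 59632 to 61570 (433), 70158 to 71373 (177), 71393 to 72682 (489.6) and 74286 to 75299 (296). Fewer peaks were called in the hairpin cells, at 50344 to 51283 (105), 59660 to 60284 (57.3), 60604 to 61496 (70.8), 70587 to 71217 (50.6) and 71401 to 72160 (119) in shGFP and 50227 to 50980 (60.9), 55608 to 56058 (42.6), 57453 to 57936 (49.8) and 71665 to 72619 (67.3) in shSuz12, and again none in liver.

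The second group of Mbp starts, from which the short transcripts of classical myelin basic protein arise, lay under a peak in 5 of the 6 libraries, all but liver. The peak over it scored 1064 in ESC, 236 in MEF, 101 in brain, 324 in shGFP and 39.0 in shSuz12. It reached from 1111 bp before this start to 1796 bp after it in ESC, and from 781 before to 590 after in brain. Within 1 kb of this start there are 60 CpG sites, and peaks covered 2001 bp of that stretch in ESC, 1986 in MEF, 1506 in brain, 0 in liver, 1780 in shGFP and 693 in shSuz12. Brain therefore had a peak on the downstream start and not on the upstream one, where its nearest peak ended 256 bp before the TSS. Upstream of the second start peaks covered 28.7% of the gene in ESC, 49.5% in MEF, 31.7% in brain, 1.95% in liver, 13.5% in shGFP and 11.2% in shSuz12. Downstream of it the values were 39.5, 34.6, 46.5, 3.61, 32.7 and 18.6%, higher than upstream in every library but MEF.

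On either side of this second start, brain peaks were at 76840 to 77978 (34.1), 78536 to 79907 (101), 80184 to 80929 (44.7), 82286 to 83229 (30.4), 84875 to 85796 (59.5), 86243 to 88346 (121), 88518 to 89242 (31.6) and 89381 to 91018 (93.2), MEF peaks at 77773 to 79498 (236), 79514 to 81611 (164), 87133 to 89303 (319) and 90165 to 90927 (36.6) and ESC peaks at 78206 to 81113 (1064), 83850 to 84636 (141) and 84751 to 87090 (797). In the hairpin cells they were at 78413 to 80192 (324), 81221 to 81777 (93.0), 81907 to 83133 (109), 83408 to 84193 (55.9), 85589 to 87090 (262), 87772 to 88461 (64.0) and 89144 to 89837 (57.4) in shGFP and at 78898 to 79590 (39.0), 80455 to 81041 (52.6), 81858 to 83127 (102), 84942 to 85603 (85.6) and 85975 to 86672 (103) in shSuz12. Each of these libraries thus had further peaks in the exons and introns after the second start. In the last part of the gene and behind it, ESC had peaks at 95740 to 97119 (437), 97168 to 98011 (128), 100065 to 100708 (85.6), 103522 to 104267 (116), 106457 to 107178 (112), 107431 to 110945 (1431), 116546 to 118549 (1557) and 119040 to 119674 (82.8), MEF at 91872 to 92607 (38.9), 93006 to 93806 (41.3), 95721 to 97037 (76.2), 106156 to 106658 (35.4), 108287 to 111575 (248) and 116676 to 117314 (39.4), and brain at 92983 to 93949 (74.7), 95989 to 98294 (136), 103656 to 105070 (74.7), 108307 to 109232 (34.6), 109266 to 111820 (197), 117255 to 118593 (98.2) and 118827 to 120386 (161). Liver had its last 2 peaks at 92786 to 93909 (200.3) and 116462 to 119727 (771), shGFP had peaks at 95779 to 96530 (91.0), 103557 to 104246 (64.0), 107818 to 109202 (209.5), 109228 to 110173 (125), 110394 to 110951 (63.9) and 116489 to 118542 (444), and shSuz12 at 95942 to 97200 (93.8), 105981 to 106349 (45.3), 108330 to 108663 (76.2), 109056 to 109401 (65.4) and 116688 to 118466 (208). The site behind the end of Mbp and within or beside its neighbour Zfp236 carried a peak in all 6 libraries, with score ranks of 98.7% in ESC, 86.4% in brain, 95.9% in liver, 98.4% in shGFP and 99.5% in shSuz12 but 24.2% in MEF.

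Mobp encodes a small basic protein of the compact myelin of the central nervous system. Mobp (ENSMUSG00000032517.8, chr9:120058860-120090602, plus strand) was 30.7% covered in ESC, 4.64% in MEF, 12.3% in brain, 1.62% in liver, 18.9% in shGFP and 13.8% in shSuz12. Its relative coverage was 4.55, 0.593, 1.68, 0.253, 4.15 and 4.40. The 3 libraries of E14 cells were therefore above brain, and brain above MEF and liver. Brain had 4 peaks, at 5728 to 6613 (30.3), 19786 to 20749 (31.2), 20993 to 22807 (101) and 28531 to 31240 (155), all within the gene, and 2 of them, including the 1 whose centre is printed above, overlapped no peak of another library. Liver had 1, at 35406 to 36243 (109.9), behind the gene, and MEF had 4, at -5640 to -4745 (80.5), 2359 to 2900 (31.7), 14079 to 14571 (36.4) and 24446 to 24916 (64.8). None of these 3 libraries had a peak within 2 kb of the TSS. ESC had 12 peaks, at -5584 to -4555 (195), -3739 to -1846 (348), 834 to 2730 (533), 5833 to 6635 (109), 13999 to 14831 (271), 17649 to 19303 (769.6), 23908 to 25666 (1051), 28944 to 30073 (349), 30517 to 32042 (735), 35001 to 36476 (358), 37288 to 38038 (91.8) and 40414 to 41542 (177). shGFP had 10, at -5317 to -4693 (51.1), 633 to 1885 (189), 5596 to 6362 (63.4), 13274 to 13921 (61.6), 17776 to 19443 (375), 24119 to 25434 (219), 25924 to 26609 (64.4), 30999 to 31864 (85.9), 34461 to 35220 (83.3) and 40537 to 42585 (147), and shSuz12 also 10, at -2612 to -2016 (70.7), 1045 to 1593 (37.4), 1837 to 2366 (65.8), 5798 to 6481 (39.4), 14202 to 14731 (38.3), 18462 to 19018 (54.5), 24469 to 25832 (190.4), 30618 to 31798 (81.0), 35172 to 35756 (44.0) and 36472 to 37056 (35.7). The site at 24469 in shSuz12 carried a peak in all 3 E14 libraries, with scores of 1051, 219 and 190.4, and was also the MEF site of 64.8, but brain had no peak there.

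Mog and Mag are cell surface proteins of the immunoglobulin family: Mog sits on the outermost layer of the sheath, and Mag on the innermost, next to the axon. Mog (ENSMUSG00000076439.5, chr17:37147691-37160343, minus strand) was 12.2% covered in ESC, 4.03% in MEF, 7.70% in brain, 0 in liver, 13.9% in shGFP and 6.09% in shSuz12. The relative coverage was 1.80, 0.514, 1.05, 0, 3.04 and 1.93. Liver had no peak within 10 kb of the gene. Brain had 3, at 10724 to 11261 (30.5), 12848 to 13985 (153) and 14567 to 15403 (32.0). The highest of them ranked at 95.5% of the brain list and lies behind the end of Mog, over the neighbouring gene Zfp57, as does the third, so that 1 of 3 brain peaks lay within Mog itself. MEF had 2, at -6411 to -5675 (86.0) and 19288 to 19865 (45.6), neither of them within Mog. ESC had 5 peaks, at -9350 to -8582 (97.2), -401 to 358 (148), 2422 to 3303 (350.4), 5611 to 6223 (263) and 12969 to 13918 (245). In shGFP there were 6, at -2985 to -2033 (84.0), -1254 to -504 (84.3), -429 to 335 (149.6), 2440 to 3170 (66.6), 5563 to 6201 (82.8) and 13195 to 13883 (77.2), and in shSuz12 4, at -3388 to -3016 (55.1), 2558 to 3178 (59.7), 8237 to 8700 (51.1) and 13462 to 13991 (38.3). ESC and shGFP each had a peak over the TSS, of 148 and 149.6, which none of the other libraries had, and the site over Zfp57, behind Mog, was the only 1 at Mog shared by brain with the E14 libraries.

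Mag (ENSMUSG00000036634.8, chr7:31684202-31699851, minus strand) had no brain peak that scored above 42.1. Peaks covered 21.4% of its window in ESC, 7.04% in MEF, 6.51% in brain, 12.2% in liver, 14.6% in shGFP and 7.97% in shSuz12, a relative coverage of 3.17, 0.899, 0.888, 1.91, 3.20 and 2.53. Brain was the lowest of the 6 by relative coverage, with MEF next to it. Brain had peaks at 13487 to 14302 (36.9), 20207 to 21029 (42.1) and 24083 to 24765 (39.2), of which 1 lay in the gene and none ranked above 35.5% of the brain list. MEF had them at 13534 to 14335 (30.1), 21136 to 21757 (36.8) and 22462 to 23546 (52.5), and liver at 1075 to 1757 (80.8), 8184 to 8962 (165), 12566 to 13349 (86.6), 22320 to 23614 (190.0) and 23983 to 24798 (124). Liver covered 14.4% of the gene itself and brain 5.21%. ESC had peaks at 224 to 917 (108), 1081 to 2008 (184), 2836 to 3787 (396), 5222 to 6002 (351), 6068 to 6876 (189), 8189 to 8973 (226), 12570 to 13357 (465), 13437 to 14321 (148) and 22514 to 23521 (286). They were at -2241 to -1621 (64.2), 1237 to 2093 (56.2), 5239 to 6368 (132), 8270 to 8992 (87.3), 12640 to 13282 (82.3), 21324 to 21857 (53.0) and 22924 to 23620 (51.2) in shGFP and at -2020 to -1454 (45.0), 2809 to 3440 (78.0), 5447 to 5964 (38.9), 12851 to 13287 (53.0) and 13652 to 14340 (64.6) in shSuz12. Of the 9 ESC peaks 8 lay in the gene, and the first began 224 bp after the TSS.

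Cnp encodes an enzyme, a phosphodiesterase of cyclic nucleotides, that is abundant in the cytoplasmic channels of myelin. Cnp (ENSMUSG00000006782.10, chr11:100436218-100453043, plus strand) carried 5hmC in all 6 libraries. Its window was 47.8% covered in ESC, 19.7% in MEF, 37.7% in brain, 48.4% in liver, 31.0% in shGFP and 24.8% in shSuz12, and the relative coverage was 7.09, 2.51, 5.13, 7.56, 6.79 and 7.87. It was the highest of the 8 genes in brain and in liver. The window overlaps the neighbours Ttc25 and Dnajc7, and within Cnp itself the covered percent was 48.9, 13.8, 53.8, 73.3, 35.8 and 27.7. Brain was above ESC within the gene and below it over the window.

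The first part of Cnp held the peak of highest rank in every library but shSuz12, where a peak at 14208 was level with it (ranks of 97.2 and 97.1%). Brain had peaks at 942 to 2446 (76.9) and 2863 to 6749 (187), liver at 825 to 2507 (734), 2779 to 4330 (515) and 4394 to 7340 (963) and ESC at 692 to 2528 (974) and 2975 to 6382 (1504). MEF had them at 949 to 1975 (142) and 2913 to 4201 (96.7), shGFP at 540 to 2229 (388) and 4379 to 6152 (468), and shSuz12 at 924 to 1846 (135), 3245 to 4368 (92.6) and 5339 to 5927 (35.5). The first of these sites, at 942 in brain, had a peak in all 6 libraries, and no library had a peak over the TSS. Upstream, where all peaks but the last in liver and in shSuz12 fall over Ttc25, ESC had peaks at -11825 to -9793 (1315), -9442 to -8778 (115), -8552 to -7281 (755), -7201 to -5669 (459) and -5351 to -3050 (549), MEF at -8460 to -7637 (55.8), -7199 to -6433 (81.8), -5470 to -4729 (64.8) and -3888 to -2965 (72.4), and shGFP at -11701 to -9638 (278), -8434 to -7612 (173), -7151 to -6495 (73.8), -5197 to -3844 (104) and -3558 to -2715 (57.1). The shSuz12 peaks here were at -10163 to -9566 (52.0), -8242 to -7435 (66.6), -6493 to -5902 (81.0), -5438 to -4887 (45.8) and -1380 to -777 (34.9) and the liver peaks at -5251 to -4434 (90.0) and -1508 to -663 (94.4). Brain had no peak upstream of Cnp, against 2 to 5 in the other libraries. Further on, where all the peaks fall over Dnajc7 too, brain had peaks at 9691 to 10590 (49.0), 10860 to 11894 (40.7), 12495 to 13460 (39.0), 16073 to 17315 (86.4), 18882 to 22059 (118) and 25662 to 26816 (45.8), and liver at 9047 to 9916 (90.5), 9924 to 11856 (315), 12367 to 13361 (159), 14132 to 15202 (247), 15537 to 17118 (337), 18923 to 21324 (459) and 23952 to 25061 (177). ESC had peaks at 9852 to 10532 (230.2), 14265 to 15292 (239), 15545 to 16909 (461), 17524 to 18405 (164), 19412 to 20327 (305) and 23459 to 24982 (322), and MEF at 19644 to 20212 (51.4) and 20224 to 21334 (66.4). Brain and liver overlapped at 5 of these 6 brain sites, and the sixth, at 25662, was seen in brain alone. In the hairpin cells they were at 11001 to 11894 (76.9), 14373 to 15073 (76.0), 15868 to 16843 (122), 17624 to 18254 (63.2) and 22894 to 23605 (62.0) in shGFP and 8508 to 9091 (44.0), 11238 to 11645 (45.3), 14208 to 15242 (136), 19372 to 19963 (35.4), 23333 to 23875 (37.7) and 24204 to 24530 (65.4) in shSuz12.

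Ugt8a encodes the galactosyltransferase that makes galactosylceramide, the main glycolipid of myelin. Ugt8a (ENSMUSG00000032854.8, chr3:125568277-125641468, minus strand, 73192 bp) had no 5hmC peak in its window in any of the 6 libraries. The peak nearest to the gene was 339909 bp away in ESC, 23505 in MEF, 65891 in brain, 113249 in liver, 77471 in shGFP and 84348 in shSuz12. A window empty in all 6 libraries was found for 14.4% of protein-coding genes, and for 2.83% of those of at least 70 kb. The Ugt8a window is poor in CpG, with 6.25 per kb, a rank of 15.3% among all genes, against 10.7 to 18.6 per kb for the other 7 members. Among genes of at least 70 kb with no more CpG per kb than Ugt8a, a subset formed after this value was seen, 13.8% were empty. The promoter is the reverse, with 171 CpG within 1 kb of the TSS and an observed to expected CpG ratio of 0.857, the highest of the 8. An empty window means that no peak was listed, and the lists do not give the depth that would limit the 5hmC there.

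Sox10 encodes a transcription factor of the oligodendrocyte lineage that is also used in the neural crest. Sox10 (ENSMUSG00000033006.8, chr15:78985343-78994920, minus strand, 9578 bp) was 58.8% covered in ESC, 9.0% in MEF, 28.1% in brain, 18.6% in liver, 45.4% in shGFP and 23.9% in shSuz12. The relative coverage was 8.72, 1.15, 3.83, 2.91, 9.95 and 7.61. Sox10 had the highest ESC and shGFP values of the 8 genes, with ranks of 98.4 and 98.9% among all genes. The peak over its TSS, with a score of 1175 in shGFP, ranked at 99.9% of that list, and the ESC peak there scored 1647. Brain had peaks at -8783 to -7822 (48.2), -6622 to -5853 (30.1), 7397 to 8516 (82.0), 9870 to 11426 (118), 11779 to 12678 (31.6), 12704 to 13933 (64.6), 14012 to 15613 (123) and 19403 to 20603 (68.0). All but 1 of these 8 lay outside the gene, which was 11.7% covered, and the nearest lay 5853 bp from the TSS. Liver had peaks at 7783 to 8510 (96.4), 10184 to 11182 (159), 11457 to 13206 (266), 15710 to 16389 (81.3) and 17629 to 18979 (258), and MEF at 1668 to 2363 (65.5), 7539 to 8133 (31.1) and 11872 to 13241 (79.6). The site at 11872 in MEF, behind Sox10 and over or beside its neighbour Polr2f, had a peak in all 6 libraries. ESC had peaks at -5397 to -4593 (158), -2774 to -1018 (692), -829 to 2466 (1647), 4820 to 5505 (105), 7593 to 8437 (123), 8520 to 9717 (258), 10178 to 13947 (2179), 14106 to 15326 (483), 15474 to 17008 (319) and 17294 to 20438 (1284). They were at -5355 to -4673 (155), -1958 to 2454 (1175), 4864 to 5451 (54.4), 7000 to 7529 (53.4), 10244 to 13956 (654), 14150 to 15238 (159), 16163 to 16958 (67.0), 17490 to 18403 (75.1) and 18444 to 19152 (56.2) in shGFP and at -2008 to -839 (126), -194 to 368 (45.2), 382 to 1553 (89.9), 6061 to 6575 (39.1), 8932 to 9502 (36.4), 12595 to 13112 (121), 13286 to 14882 (163), 16152 to 16627 (80.6) and 17799 to 18299 (48.7) in shSuz12. The 1 peak over the TSS in shGFP, 4413 bp wide, was matched in the shSuz12 list by 3 narrower peaks, and the bp covered within 1 kb of the TSS were 1830 in ESC, 2001 in shGFP, 1344 in shSuz12 and 0 in the other 3.

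Myrf encodes the factor that drives the last step of maturation, in which oligodendrocytes turn on the myelin genes. Myrf (as Gm98, ENSMUSG00000036098.8, chr19:10282762-10315238, minus strand) was 42.8% covered in ESC, 16.1% in MEF, 15.2% in brain, 43.3% in liver, 21.2% in shGFP and 13.1% in shSuz12, and its relative coverage was 6.34, 2.06, 2.08, 6.77, 4.64 and 4.16. Liver was the highest and MEF and brain the lowest. Within the gene itself liver covered 56.9% and brain 10.9%. No library had a peak within 1 kb of the Myrf TSS, and the nearest began 1768 bp after it, in liver. Brain had 7 peaks, at -10346 to -9207 (72.3), -8007 to -6641 (83.9), 5172 to 5937 (33.3), 6185 to 8045 (80.3), 19092 to 20010 (35.2), 34254 to 35189 (36.4) and 39483 to 40833 (123). The 2 upstream brain peaks lie over Dagla and the last 2 over 1810006K21Rik and Fen1, so that 3 of the 7 lay in Myrf. Liver had peaks at 1768 to 2959 (180.4), 6052 to 9005 (786), 9071 to 10042 (134), 11573 to 12228 (95.4), 12309 to 14588 (466), 15022 to 16648 (446), 17109 to 18089 (147) and 19002 to 19959 (173) and, in the second part of the gene and beyond, at 20480 to 21385 (98.0), 21770 to 22665 (90.8), 26465 to 28809 (495), 28826 to 30813 (478), 31404 to 32137 (100.2), 32504 to 35730 (977) and 39806 to 40797 (125). MEF had peaks at -8160 to -6218 (230.4), -3108 to -2509 (34.7), 6122 to 6903 (47.0), 11306 to 12158 (40.8), 13958 to 14612 (42.1), 15134 to 16608 (137), 16874 to 17922 (55.6), 18930 to 19951 (62.2) and 42381 to 43548 (69.4). The liver peaks from 26465 to 28809, with a rank of 90.2%, from 9071 to 10042 and from 31404 to 32137 had no counterpart in any other list. As the share of such peaks over the whole liver list was not computed, they cannot be called many or few. ESC had peaks at -10608 to -9326 (216), -8155 to -6205 (1037), -5989 to -5407 (84.1), -3151 to -2454 (93.1), 1886 to 2958 (254), 4547 to 5733 (289), 6152 to 7856 (783), 11455 to 13642 (875), 15045 to 15791 (116), 15877 to 16414 (84.1) and 17220 to 17841 (85.4) and then at 19018 to 20272 (381), 20482 to 22740 (976), 23519 to 24223 (247), 24592 to 25274 (158), 25293 to 26185 (288), 29574 to 30532 (552), 32626 to 34023 (239) and 38843 to 41165 (949). In the hairpin cells they were at -8173 to -7322 (219), -6974 to -6077 (109.5), -3034 to -1902 (105), 6124 to 7995 (303), 10627 to 11276 (55.1), 11442 to 12202 (63.9), 12831 to 13504 (85.8), 15057 to 15667 (58.6), 15912 to 16562 (127), 19163 to 20050 (77.4), 20761 to 21367 (79.4), 21656 to 23143 (197) and 42439 to 43112 (65.5) in shGFP and at -8108 to -7365 (79.7), -2559 to -2193 (45.3), 1975 to 2300 (55.1), 6863 to 7662 (50.1), 11572 to 12098 (86.6), 15642 to 16196 (37.1), 19100 to 19595 (49.0), 25668 to 26277 (34.6), 29470 to 30475 (81.7), 33373 to 33911 (37.9) and 39592 to 40487 (117) in shSuz12. The sites that begin at 6185 and 19092 in brain, both in Myrf, carried a peak in all 6 libraries.

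The first question the libraries allow is how 5hmC at these genes in brain, the tissue that makes central myelin, stands against cells that do not. The 3 comparisons share the brain library and are given side by side. Against liver, 3 of the 8 genes were called higher in brain, where 18.6% of all protein-coding genes were, and 2 were called lower, where 27.5% were. The higher ones were Mbp, with a ratio of 6.78, Mobp, with 6.63, and Mog, which had no liver peak. The lower ones were Mag at 0.464 and Myrf at 0.307, with Cnp at 0.678 and Sox10 at 1.32 between. Against MEF, 4 were called higher, namely Sox10 at 3.34, Mobp at 2.83, Cnp at 2.04 and Mog at 2.04, where 23.3% of all genes were, and 0 were called lower, where 13.6% were. Mbp at 0.952, Mag at 0.988 and Myrf at 1.01 were level. The Sox10 call came from the flanks, since within the gene itself brain covered 11.7% and MEF 13.5%. Within the other genes called higher, brain covered 20.1% of Mobp, 53.8% of Cnp and 4.25% of Mog. MEF covered 4.74, 13.8 and 0% of them. Against ESC, 0 of the 8 were called higher in brain, where 13.3% of all genes were, and 4 were called lower, where 27.2% were, namely Mag at 0.28, Myrf at 0.328, Mobp at 0.369 and Sox10 at 0.44. Mog at 0.582, Cnp at 0.724 and Mbp at 1.07 were nearer. A ratio over liver cannot be given for Mog, and the 2 transcription factors stood on opposite sides of liver. Of the MEF calls 2 sat at the threshold, and the count fell to 1 or 2 under 6 of the alternatives, while the count lower than liver fell from 2 to 1 under 5. Where only peaks that scored 80 or more were kept in all lists, 1 gene in place of 4 was lower in brain than in ESC.

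**Figure D3:**
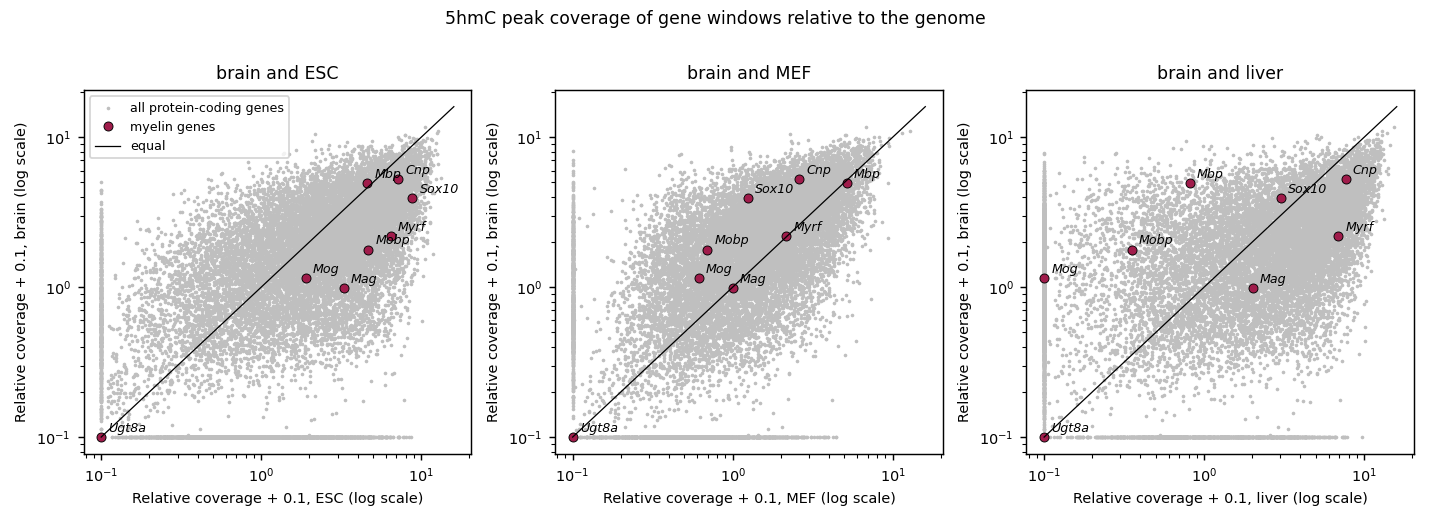
Relative coverage plus 0.1 of brain (vertical axis, log scale) against ESC, MEF and liver (horizontal axes, log scale), with 1 grey point for each protein-coding gene, red points for the 8 myelin genes and a line where both are equal. Against ESC all 8 but Mbp, at a ratio of 1.07, and Ugt8a, at 0 in both, lie below the line, while against liver Mbp, Mobp and Mog lie far above it and Myrf and Mag below.

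Silencing of Suz12 was used to ask whether 5hmC at Polycomb targets depends on PRC2. Suz12 levels were not analysed here, so the libraries are named by their hairpin. By relative coverage 0 of the 8 genes were called higher in shSuz12 than in shGFP, where 9.31% of all genes were, and 0 lower, where 9.42% were. The ratios were 0.937 for Mbp, 0.637 for Mog, 0.792 for Mag, 1.06 for Mobp, 1.16 for Cnp, 0.765 for Sox10 and 0.895 for Myrf, with no value for Ugt8a. Without the division by the genome the percent covered was lower in shSuz12 at all 7, with ratios from 0.439 at Mog to 0.798 at Cnp and 0.527 at Sox10, and the shSuz12 list as a whole covered 3.15% of the genome against 4.57% in shGFP. Which of the 2 scales reflects the cells cannot be told from the lists alone, since they give no depth. By dot blot, the study reports a significant drop in global hydroxymethylation after the silencing. An even loss over the genome would be removed by the division by the genome. The count of 0 lower therefore holds only relative to the genome share of each list, and a global loss was not tested here. The same measure between shGFP and ESC, both with intact Suz12, gave ratios from 0.733 at Myrf to 1.68 at Mog, with 0 called higher, against 6.48% of all genes, and 0 lower, against 9.37%. All 7 ratios of shSuz12 to shGFP except that of Mog, 0.637, lay within this range. The range comes from 7 genes in 2 lists with different lowest scores. It does not measure a spread between replicates, so no conclusion on Suz12 is drawn from it. With a common score of at least 80, 2 genes were called higher and 2 lower in shSuz12 than in shGFP.

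Peaks near the starts were found at most of the 8 genes in ESC and shGFP. In shSuz12 and brain they were found at 2, close to the share of all genes, and in liver and MEF at 1. A peak within 1 kb of the TSS was present at 6 of the 8 genes in ESC, against 31.9% of all genes, and at 5 in shGFP, against 27.1%. The counts were 2 in shSuz12 against 21.4%, 2 in brain against 20.0%, 1 in liver against 29.4% and 1 in MEF against 30.1%. The 6 in ESC were Mbp with 1300 bp covered, Mog with 760, Mag with 694, Mobp with 167, Cnp with 309 and Sox10 with 1830, and the 5 in shGFP were the same without Mag. In shSuz12 they were Cnp with 301 bp and Sox10 with 1344, in brain Mbp with 745 and Cnp with 59, in liver Cnp with 514 and in MEF Cnp with 52. The TSS itself lay under a peak at Mbp, Mog and Sox10 in ESC and in shGFP, against 11.8 and 11.2% of all genes, and at Sox10 in shSuz12, against 5.83%. It lay under a peak at none of the 8 in MEF, brain or liver, where 6.87, 4.46 and 5.38% of all genes had one. For Mbp this TSS is the upstream start, and the second group of Mbp starts lay under a peak in every library but liver. The counts depend on the width: within 2 kb shSuz12 had 5 genes with a peak, and within 500 bp 1. Within 1 kb of any annotated transcript start it had 3.

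**Figure D4:**
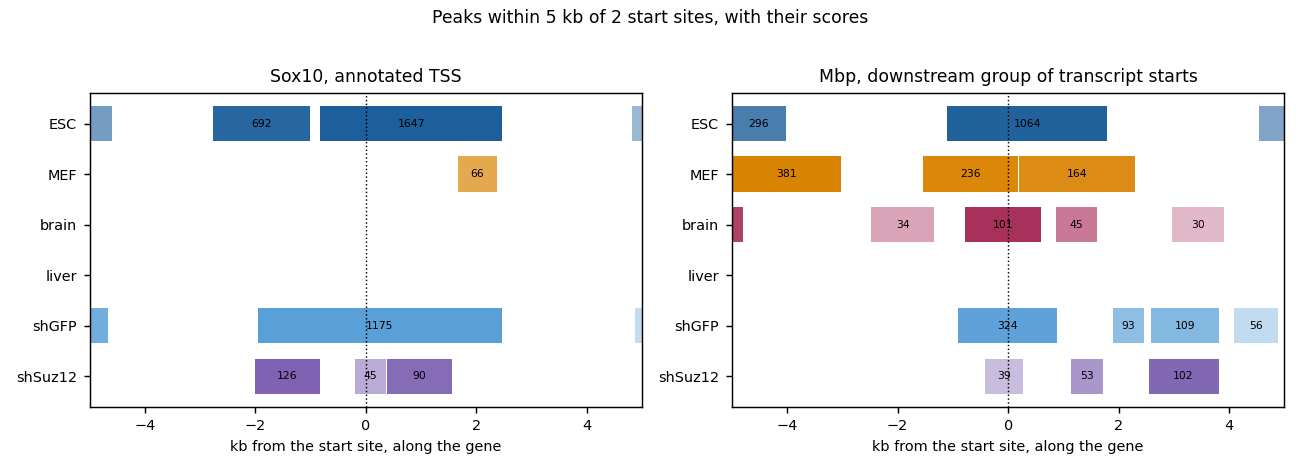
Peaks within 5 kb of the Sox10 TSS (left) and of the second group of Mbp starts (right), in kb from the start along the gene (horizontal axis), with 1 row for each library and the score written on each peak. At Sox10 only the 3 E14 libraries have a peak over the start, with 1647 in ESC, 1175 in shGFP and 45.2 in shSuz12, while at the Mbp start every library but liver has one.

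The positions of brain peaks at these genes were compared with those of the other libraries. Of the 67 brain peaks, 45 (67.2%, exact Clopper-Pearson 95% interval 54.6 to 78.2%) overlapped an ESC peak by at least 1 bp, where 46.4% of all brain peaks did. The overlap was 35 with MEF (52.2%, 39.7 to 64.6%), where it was 50.5% of all brain peaks, and 21 with liver (31.3%, 20.6 to 43.8%), where it was 39.3%. With shGFP and with shSuz12 it was 34 each (50.7%, 38.2 to 63.2%), where it was 33.7 and 30.9%. The shares depend on the rule of 1 bp. Where an overlap of 50% of both peaks was required, they were 29.9% with ESC, 20.9% with MEF and 23.9% with liver. With shGFP and shSuz12 they were 20.9 and 22.4%, and no share over all brain peaks was computed under this rule. The intervals cover counting error only, and neighbouring peaks of a gene are not independent. The peaks of E14 cells also cover more of these windows than of the genome, and Mbp alone holds 34 of the 67 brain peaks, so these shares are given as descriptions. Brain alone held 9 of the peaks, and 7 overlapped a peak in all 5 other libraries. The same counts were not taken over all brain peaks, so 9 and 7 cannot be called many or few. The brain-only peak with the highest score was that of Mobp printed above, at 101 with a rank of 87.3%. The 9 included 2 peaks each at Mog, Mobp and Sox10 and 1 each at Mbp, Mag and Cnp.

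By the midpoint of the peak, 6 of the brain peaks lay upstream of the gene, 11 in an exon, 34 in an intron and 16 downstream. The median score rank of the peaks in these windows was 66.8% in ESC, 56.6% in MEF, 71.0% in brain, 52.2% in liver, 47.5% in shGFP and 52.2% in shSuz12. Mbp holds 34 of the 67 brain peaks and so weighs on the brain value, and ranks in lists of different length and lowest score were not compared. Covered sequence was richer in CpG than the rest of the windows in all 6 libraries, with 21.1 against 9.81 CpG per kb in ESC, 19.8 against 11.5 in MEF and 18.2 against 11.6 in brain. The values were 17.2 against 12.2 in liver, 22.5 against 10.8 in shGFP and 24.7 against 11.4 in shSuz12.

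The wider set of myelin genes did not share the high ESC level of the 8. For 20 other genes of the myelin sheath the median relative coverage was 1.78 in ESC, 1.36 in MEF, 1.25 in brain, 0.685 in liver, 2.13 in shGFP and 1.62 in shSuz12. Of these, 9 were called higher in brain than in liver and 4 lower, where 18.6 and 27.5% of all genes were. Against MEF 6 were higher and 2 lower (23.3 and 13.6% of all genes), and against ESC 2 were higher and 6 lower (13.3 and 27.2%), the last close to the share of all genes. Brain relative coverage was highest, against the mean of ESC, MEF and liver, for Gpr37, an orphan receptor (0.547 in brain, ratio 5.17), Nfasc, the adhesion molecule neurofascin (4.89, ratio 2.17), and Opalin, an oligodendrocyte membrane protein (3.04, ratio 1.93). The Gpr37 ratio rests on small values, since it divides 0.547 by a mean of 0.106, and MEF and liver had no peak in its window. Among the lowest by this ratio were the connexin genes Gjb1 and Gjc3, both with no brain peak in the window. Gjb1 is on the X chromosome, where every list has few peaks, from 22 in brain and 104 in liver to 757 in MEF.

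For 15 regulators of the oligodendrocyte lineage the median relative coverage was 2.60 in ESC, 1.49 in MEF, 2.02 in brain, 0.945 in liver, 2.83 in shGFP and 1.97 in shSuz12. In brain 7 were called higher and 3 lower than in liver (18.6 and 27.5% of all genes), and 5 higher and 3 lower than in MEF (23.3 and 13.6%). Against ESC 2 were higher and 4 lower, close to the 13.3 and 27.2% of all genes. The highest brain ratios were those of Ptprz1, a receptor tyrosine phosphatase (1.32 in brain, ratio 4.36), Nkx6-2, a homeodomain factor (5.49, ratio 2.45), and the zinc finger gene Zfp488 (2.02, ratio 2.23). The lowest were those of Olig2, the basic helix-loop-helix factor of the lineage, with no brain peak, Erbb3, a neuregulin receptor (0.243, ratio 0.0658), and Qk, an RNA-binding protein (0.6, ratio 0.317). Olig2 had a relative coverage of 2.60 in ESC, 5.10 in shGFP and 1.97 in shSuz12, so that it, like Sox10, had more in E14 cells than in brain.

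**Figure D5:**
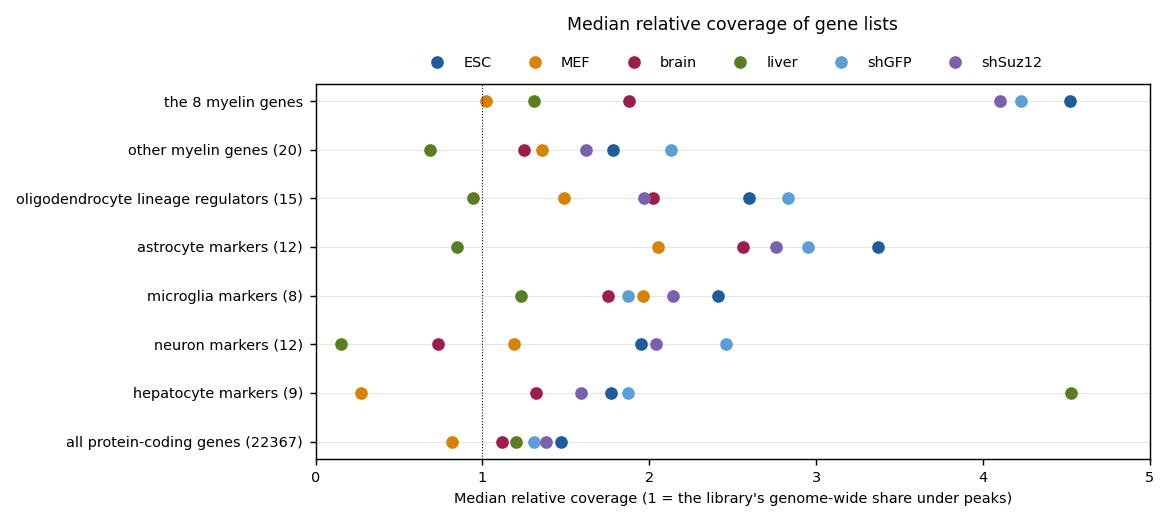
Median relative coverage (horizontal axis, where 1 is the share of the whole genome under peaks in that library) of the 8 myelin genes, of 6 other gene lists and of all protein-coding genes, with 1 point for each library and the number of genes in brackets. The E14 libraries lie furthest right for the 8 myelin genes, at 4.10 to 4.52, and liver lies furthest right for the hepatocyte markers, at 4.53.

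Outside all lists, the protein-coding genes whose relative coverage over the 6 libraries was most like the median of the 8 were Nol6, Ncaph, Ogfod1, Rasgrp4 and Insrr. Likeness was measured as the Euclidean distance of log2(relative coverage + 0.1) over the 6 libraries, and these had 0.369, 0.48, 0.502, 0.514 and 0.544. Nol6 had 4.58 in ESC, 1.02 in MEF, 1.64 in brain, 1.37 in liver, 3.77 in shGFP and 3.59 in shSuz12.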

How the data were processed

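DNA of 6 samples was captured for 5hmC and sequenced, 1 library for each condition. The authors called bases with CASAVA 1.8, mapped the reads to mm9 with Bowtie 0.12.7, keeping unique hits with up to 2 mismatches, removed duplicate reads and ran MACS 1.4.1 on each library. The deposited lists give each peak a score, which was read as the value that MACS gives, the negative log10 of p multiplied by 10. The control and threshold of each list are not given in the sources used here. The numbers of the peaks ran without gaps in every list. As no read counts are listed, depth is unknown, and both depth and threshold can set the length of a list.

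Peaks were intersected with GENCODE M1 on NCBIM37, the same assembly, after mitochondrial peaks were left out. A peak belonged to a window when they shared at least 1 bp. Where 2 gene models shared a symbol the longest was used. Shares have exact (Clopper-Pearson) 95% intervals for counting error only. The 8 genes and the other lists were chosen with earlier results of these data known. Named are the 8 genes, the 3 genes of each other list with the highest and the 3 with the lowest ratio of brain relative coverage to the mean of ESC, MEF and liver, and the 5 other genes nearest to the median pattern. Some items under this rule are not reported here. Alternatives were the upper 50% of every list by score, a common score of at least 80, equal numbers of peaks, flanks of 0 or 50 kb, midpoints, other promoter widths and starts, 3-fold and 1.5-fold limits, unscaled percents and an overlap of 50% of both peaks. Tools were matplotlib 3.10.9, scipy 1.17.1, pandas 2.3.3 and numpy 2.4.6 under Python 3.11.15, and the steps were tested on simulated peaks.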

Additional observations from a re-analysis of the deposited data

How the results depend on the processing

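Of 204 values recomputed with the other settings, 141 stayed within 1.5 times the value given, or within its interval, and 63 did not. The cause of each shift was not tested, except where fewer peaks or wider windows are the construction itself. No paired analysis was possible because there is 1 library per condition.

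Keeping only the upper 50% of every list by score left 67 peaks in the windows in ESC, 38 in MEF, 40 in brain, 22 in liver, 38 in shGFP and 40 in shSuz12. It gave 2 genes higher in brain than in MEF, 1 higher in shSuz12 than in shGFP and 1 with a promoter peak in brain. A common score of at least 80 left 26 peaks in MEF, 24 in brain, 46 in shGFP and 20 in shSuz12. With it, 2 genes were higher and 2 lower in shSuz12 than in shGFP, 1 was lower in brain than in ESC, 1 was lower in brain than in liver and 0 had a promoter peak in brain, and the brain peaks shared were 91.7% with ESC, 33.3% with MEF and 29.2% with shSuz12. Equal numbers of peaks left 43 in MEF and gave 2 genes higher in brain than in MEF, 1 lower than in liver and 1 with a promoter peak in brain.

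Flanks of 50 kb gave 217 peaks in ESC, 154 in MEF, 139 in brain, 121 in liver, 182 in shGFP and 177 in shSuz12, with 1 gene higher and 1 lower in brain than in MEF, 1 lower than in liver and 43.9% of brain peaks shared with liver. Without flanks shGFP had 55 peaks, and 65.2% of brain peaks were shared with MEF. Unscaled percents gave 2 genes higher in brain than in MEF, 1 lower than in liver and 1 lower in shSuz12 than in shGFP. A 3-fold limit gave 1 gene higher in brain than in MEF, 2 lower than in ESC and 1 lower than in liver, a 1.5-fold limit gave 1 lower in shSuz12 than in shGFP, and midpoints gave 2 higher in brain than in MEF.

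Promoters of 2 kb on each side held peaks at 2 genes in MEF, 3 in liver and 5 in shSuz12, and those of 500 bp at 0 in MEF, 1 in brain, 0 in liver, 3 in shGFP and 1 in shSuz12. With any annotated transcript start MEF had 2. Requiring an overlap of 50% of both peaks gave shares of brain peaks of 29.9% with ESC, 20.9% with MEF, 20.9% with shGFP and 22.4% with shSuz12. The median relative coverage of the 8 genes moved to 3.48 in brain, 0.518 in MEF and 6.35 in shSuz12 with the common score, and in liver to 0.783 without flanks and 2.02 with flanks of 50 kb.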

Other observations

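Lists of markers for other cells of the samples gave these values, as descriptions with 1 library each. Of all protein-coding genes 18.6% were called higher and 27.5% lower in brain than in liver, and 13.3% higher and 27.2% lower than in ESC. The 12 astrocyte markers had a median relative coverage of 2.56 in brain, 3.37 in ESC, 2.05 in MEF and 0.848 in liver, and 4 of them were called higher and 2 lower in brain than in liver. Against the mean of ESC, MEF and liver, the highest brain ratios included those of S100b (2.03) and Slc1a2 (1.76), and brain was lowest at Gja1, which had no brain peak, Aqp4 (0.537) and Aldoc (0.58). The 8 microglia markers had a median relative coverage of 1.75 in brain and 1.23 in liver. By the same ratio P2ry12 (2.0) and Itgam (0.85) were among the highest and Tmem119 (0.426), Cx3cr1 (0.463) and Trem2 (0.599) lowest.

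The 12 neuron markers had a median of 0.732 in brain, below the 1.12 of all protein-coding genes, against 1.95 in ESC, 1.19 in MEF and 0.154 in liver. Of these, 8 were called lower in brain than in ESC and 2 higher, while 6 were called higher in brain than in liver and 2 lower. By the ratio of brain to the mean of ESC, MEF and liver, Map2 (4.08), Eno2 (1.18) and Rbfox3 (0.895) were highest. The relative coverage of Map2 in brain was itself 0.839, over a mean of 0.206. Gad1 and the X-linked Syn1 had no brain peak, and Slc17a7 had a ratio of 0.251. In the 9 hepatocyte markers the median was 4.53 in liver, 1.32 in brain, 1.77 in ESC and 0.273 in MEF, and 6 were called lower in brain than in liver and 0 higher. Among them the same ratio was highest at Apoa1 (1.45), Ttr (0.735) and Fgb (0.64). It was lowest at Alb, with no brain peak, Apoa2 (0.279) and Hnf4a (0.317).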
